A study of Mus musculus with 24 samples.

Results

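A set of 10 genes of BMP, TGF-beta and activin signalling was followed through the knockdown of the long noncoding RNA Ctcflos in brite adipocytes, the thermogenic fat cells that arise within white fat. They were taken by symbol from the deposited expression table: the ligands Inhba, Inhbb, Tgfb1, Tgfb2, Tgfb3, Gdf10 and Bmp4, the receptor Bmpr1a and the extracellular proteins Fst and Fstl1. All 10 were found among the 52089 gene symbols in the table, and each is represented by the RefSeq entry with the highest mean RPKM (reads scaled by transcript length and by the mapped reads of the library). Preadipocytes came from the stromal-vascular fraction of inguinal white adipose tissue of 129SvEv mice, male and 5 to 6 weeks old by the study's methods. After 2 days of induction at sub-confluence and 1 day of differentiation, with rosiglitazone to induce browning, cells of all groups were reverse transfected with an LNA gapmer at 50 nM. A gapmer is a modified antisense strand that has RNase H cut the RNA it pairs with. In KD the gapmer was directed at Ctcflos and in NC it had no target, and RNA was harvested 24 h or 72 h later, with 6 libraries in each of the 4 groups. The labels do not say which of the Ctcflos gapmers the libraries received. The study states that its global transcriptome work centred on Ctcflos transcript 1. The study describes its replicates as biological, whereas the labels do not tie libraries to separate mice or cultures, so p-values measure the spread between libraries, which may in part be technical.

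Ligands of this family are secreted dimers that bind pairs of type I and type II receptor kinases, which phosphorylate Smad transcription factors. TGF-betas and activins signal mainly through Smad2 and Smad3, and BMPs through Smad1, Smad5 and Smad9. In fat, BMP4 commits progenitors to the adipocyte lineage, whereas TGF-beta and activin A, the dimer of Inhba chains, are known to hold preadipocytes back from differentiation. Follistatin, encoded by Fst, binds activins and keeps them from their receptors.

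The 3 members that passed the test at both times were Inhba, Gdf10 and Fstl1, and the sequences around their RefSeq start sites are given to show what lies at the genes whose transcripts moved. Inhba lies on chromosome 13 from 16011851 to 16031621 on the plus strand (GRCm38, GENCODE M21), Gdf10 on chromosome 14 from 33923587 to 33937983 on the plus strand, and Fstl1 on chromosome 16 from 37776873 to 37836514 on the plus strand. No exon of another annotated gene overlaps their exons. Each sequence runs 5′ to 3′ on the plus strand from 250 bases before to 50 bases after the start, from RefSeq on GRCm38.p6, and such a window was given for 8 of the 10 members. Capitals mark matches, on either strand, to 6 short motifs. These were TGANTCA for AP-1, TGACGTCA for CRE, CAGAC and GGCGCC for Smads, GGAATG for TEAD and TATAAA, the core promoter element of that name.
Inhba, chr13:16011601-16011900: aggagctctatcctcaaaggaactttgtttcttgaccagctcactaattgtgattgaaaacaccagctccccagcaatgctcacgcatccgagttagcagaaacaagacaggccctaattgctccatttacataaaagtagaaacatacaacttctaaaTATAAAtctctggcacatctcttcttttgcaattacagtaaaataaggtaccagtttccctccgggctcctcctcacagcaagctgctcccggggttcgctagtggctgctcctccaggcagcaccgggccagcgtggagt
Gdf10, chr14:33923337-33923636: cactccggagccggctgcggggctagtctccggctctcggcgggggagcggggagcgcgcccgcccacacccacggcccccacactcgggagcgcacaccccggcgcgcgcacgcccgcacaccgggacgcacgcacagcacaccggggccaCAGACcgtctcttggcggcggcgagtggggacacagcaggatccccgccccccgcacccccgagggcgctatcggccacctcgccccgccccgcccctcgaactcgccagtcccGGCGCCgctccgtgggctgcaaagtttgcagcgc
Fstl1, chr16:37776805-37777104: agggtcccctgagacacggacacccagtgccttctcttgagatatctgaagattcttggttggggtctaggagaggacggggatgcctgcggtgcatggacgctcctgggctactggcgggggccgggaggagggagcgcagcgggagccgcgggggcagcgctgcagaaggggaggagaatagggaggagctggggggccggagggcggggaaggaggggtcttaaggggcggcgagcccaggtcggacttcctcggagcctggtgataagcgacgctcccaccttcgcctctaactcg

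The Inhba window held TATAAA, which begins 91 bases before the start and is in 13.6% of the 32851 windows of this length in the table. It had the lowest GC content of the 3 windows, 47.7%, against 77.3% for Gdf10 and 66.7% for Fstl1. The Gdf10 window held CAGAC beginning 98 bases before the start (49.6% of all windows) and GGCGCC beginning 16 bases after it (11.9%), and the Fstl1 window held no match. AP-1, CRE and TEAD letters, in 7.81%, 1.79% and 14.7% of all windows, were in none of the 3. No 2 of the 3 windows shared a motif. Such matches are a description of letters, not of binding.

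The table holds 24 libraries of 3′ end sequencing with 1391830 to 5423833 mapped reads each, as recovered from the steps of the RPKM values. The shallowest was replicate 6 of KD 24 h. Of the Ctcflos entries, NR_040321 had 0.231 RPKM on average in KD 72 h and 1.23 in NC 72 h (18.8%, two-sided exact permutation p = 0.0043), and 0.189 against 0.741 at 24 h (25.5%, exact permutation p = 0.045). The entry ENSMUST00000144256, transcript 1 in the study's naming, stood at 8.37% of the control at 72 h (exact permutation p = 0.013) and at 59.4% at 24 h (exact permutation p = 0.37). It averaged 0.116 RPKM in KD and 1.38 in NC at 72 h, and 0.239 and 0.402 at 24 h. For a transcript of 2 kb, 3 reads are 0.28 to 1.08 RPKM across the libraries. The percentages of both entries thus rest on few reads. Replicates 2 and 3 of NC 72 h differed by less than the counting noise and were counted as 1 sample, so that this group has n = 5. Libraries were also divided into 2 clusters, a number set beforehand, by what their groups do not explain. The larger holds 16 libraries and the smaller 8, with 2 of each group. Deviations of libraries from different groups correlated at 0.1 on average within a cluster and at -0.13 between clusters. The clusters come from these same data and are not a label of the samples. Values within a cluster are given beside the main results that the clusters touch. All RPKM values below were scaled between samples by a trimmed mean of log ratios (scaled RPKM). Changes are from limma on log2(scaled RPKM + 0.1), given with their standard error (SE), and adjusted p-values are Benjamini-Hochberg values over all entries tested. A gene is called at an adjusted p under 0.05.

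The levels of the members spanned nearly 3 orders of magnitude. By mean scaled RPKM over all samples the order was Fstl1 (281), Inhba (18.3), Fst (7.71), Bmpr1a (5.29), Tgfb3 (2.88), Gdf10 (1.84), Tgfb1 (1.02), Tgfb2 (0.948), Inhbb (0.436) and Bmp4 (0.369). RPKM divides by transcript length although reads come from the 3′ end, so the order by reads differs: Bmpr1a had 113 reads per library on average, Inhba 112 and Fst 68.8. Bmp4 had 2.75 reads per library and Inhbb 7.33, which is close to the floor of 3 reads.

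**Figure D1:**
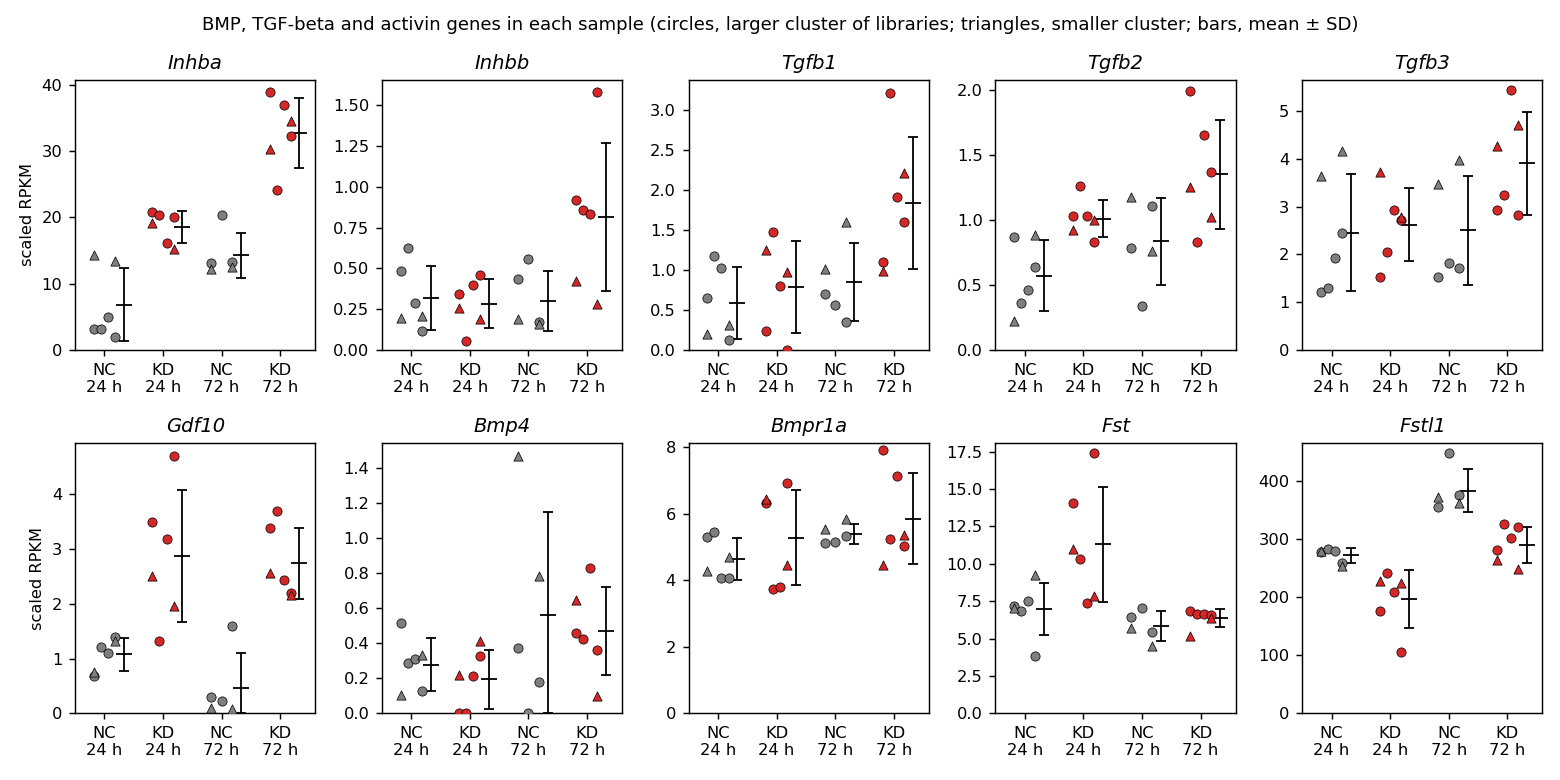
Scaled RPKM (y axis, from 0) of the 10 genes in each sample of NC (grey) and KD (red) at 24 h and 72 h, with the mean and SD of each group beside the points (error bars cut at 0). Circles are libraries of the larger cluster and triangles of the smaller one. Inhba in KD lies above every control sample of its time, and the 2 triangles of NC 24 h lie at 13.4 and 14.3, near the KD samples.

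Inhba and Gdf10, both ligands, rose in KD at both times, and Fstl1 fell at both. At 24 h 7 members had enough reads to be tested and 3 were called, 2 higher and 1 lower. Over all genes tested at that time (1 row per symbol), 22.8% were called, 11.0% higher and 11.8% lower. At 72 h 8 members were tested and 3 were called, again 2 higher and 1 lower, against 23.3% of all genes, 10.4% higher and 12.9% lower. The called share of the members is thus 3 of 7 and 3 of 8 at a background near 1 in 4. The median log2 fold change of the tested members was 0.68 at 24 h and 0.68 at 72 h, and that of all genes tested was -0.01 at both. The members were chosen with earlier results of these data known. At 72 h Gdf10 (1 to 11 reads per NC library, 23 to 37 per KD library) passed the filter on reads through KD. Tgfb1 (2 to 15 and 8 to 24) did so mostly through KD. Neither the counts nor the medians are thus a neutral comparison with all genes.

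Inhba encodes the inhibin beta A chain, which forms activin A. At 24 h it measured 15.2 to 20.9 scaled RPKM in the 6 KD libraries (median 19.6) and 1.97 to 14.3 in the 6 NC libraries (median 4.15). The groups did not overlap, which held for 11.6% of all genes tested at 24 h. In NC the libraries split, with replicates 1 to 4 between 1.97 and 5.06 and replicates 5 and 6, those of the smaller cluster, at 14.3 and 13.4. Inhba rose by 1.81 ± 0.41 (SE) on the log2 scale, or 3.5-fold (95% interval 0.94 to 2.68, adjusted p = 0.0069). Within the larger cluster alone it rose by 2.57 ± 0.27 (adjusted p = 0.000267), and within the smaller cluster alone the difference was 0.29 ± 0.19 (adjusted p = 0.399). That the 24 h effect differs between the clusters was not tested.

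At 72 h Inhba measured 24.1 to 38.9 scaled RPKM in KD (median 33.4). The NC samples measured 13.1 in replicate 1, 20.3 in the mean of replicates 2 and 3, 12.2 in replicate 4, 12.5 in replicate 5 and 13.3 in replicate 6. All 6 KD samples were above all 5 NC samples, as groups did not overlap for 14.6% of genes at this time. Inhba rose by 1.21 ± 0.16, or 2.31-fold (95% interval 0.87 to 1.55, adjusted p = 0.00015). Here both clusters gave the call, with 1.09 ± 0.20 in the larger (adjusted p = 0.00246) and 1.38 ± 0.19 in the smaller (adjusted p = 0.00107). All 3 Inhba entries in the table were called higher at both times, at 1.67 to 1.87 at 24 h and 1.21 to 1.23 at 72 h. Entries of the same gene, here and below, can count the same reads, so they are not independent measurements.

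In NC, Inhba averaged 6.86 ± 5.53 scaled RPKM (SD, n = 6) at 24 h and 14.3 ± 3.39 (SD, n = 5) at 72 h. The difference over time was 1.41 ± 0.44 on the log2 scale and missed the threshold (adjusted p = 0.062). It was 2.22 ± 0.30 within the larger cluster (adjusted p = 0.000747) and -0.17 ± 0.20 within the smaller one (adjusted p = 0.712). Without NC 24 h replicate 5 it was 1.69 (adjusted p = 0.0165) and without NC 24 h replicate 6 it was 1.67 (adjusted p = 0.0201). By group means the order of Inhba was KD 72 h, KD 24 h, NC 72 h and NC 24 h. KD 72 h lay above KD 24 h without overlap, whereas NC 72 h overlapped both of its neighbours in that order.

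The second activin chain gene, Inhbb, was too low to be tested at either time. It measured 0.0559 to 0.462 scaled RPKM in KD 24 h (median 0.3) and 0.118 to 0.627 in NC 24 h (median 0.249), which overlap almost fully. At 72 h KD ran from 0.284 to 1.58 (median 0.846). The NC samples measured 0.434 in replicate 1, 0.555 in the mean of replicates 2 and 3, 0.188 in replicate 4, 0.158 in replicate 5 and 0.171 in replicate 6. In deposited RPKM the 72 h means were 0.885 ± 0.448 (SD, n = 6) in KD and 0.28 ± 0.166 (SD, n = 5) in NC (86 against 29 reads, two-sided exact permutation p = 0.022). This p is one of 8 exact tests of low members and is 0.18 after Benjamini-Hochberg adjustment over them. At 24 h the same test gave an exact permutation p of 0.86. The 2 Inhbb entries of the table hold identical values.

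Gdf10, also known as BMP3b, is a ligand of the BMP3 subgroup. At 24 h it measured 1.33 to 4.70 scaled RPKM in KD (median 2.85) and 0.683 to 1.40 in NC (median 1.16). The groups overlapped only through replicate 2 of KD. It rose by 1.27 ± 0.30 on the log2 scale, or 2.41-fold (95% interval 0.63 to 1.91, adjusted p = 0.0088). The largest value was in the shallowest library, KD 24 h replicate 6, without which the rise was 1.11 (adjusted p = 0.0114). Within the smaller cluster alone the difference was 1.08 ± 0.41 and was not called (adjusted p = 0.179).

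At 72 h Gdf10 measured 2.16 to 3.69 scaled RPKM in KD (median 2.5). The NC samples measured 0.294 in replicate 1, 0.233 in the mean of replicates 2 and 3, 0.106 in replicate 4, 0.0892 in replicate 5 and 1.59 in replicate 6. These are 1 to 3 reads per library in all but replicate 6, which had 11, against 23 to 37 in KD. No NC sample reached the lowest KD sample. Gdf10 rose by 2.85 ± 0.47, or 7.2-fold (95% interval 1.85 to 3.85, adjusted p = 0.00075), the largest change of any member. With so few control reads the size depends on the pseudocount: it was 1.42 ± 0.21 with a pseudocount of 1 (adjusted p = 0.000332), and still called.

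In NC, Gdf10 was lower at 72 h than at 24 h by a difference of -1.56 ± 0.48 that missed the threshold (adjusted p = 0.057). It passed without NC 72 h replicate 6 (-2.10 ± 0.32, adjusted p = 0.00123) or 3 (-1.68, adjusted p = 0.0473), with the cluster as a covariate (-1.51 ± 0.44, adjusted p = 0.0343) and by voom on recovered reads (-1.81, adjusted p = 0.0415). Within the smaller cluster alone it was -2.47 ± 0.51 (adjusted p = 0.0313) and within the larger -0.95 ± 0.55 (adjusted p = 0.341). The KD groups averaged 2.87 ± 1.20 (SD, n = 6) and 2.74 ± 0.644 (SD, n = 6), and their ranges overlap. The difference between the knockdown effects at 72 h and 24 h was 1.58 ± 0.57 (interaction, 95% interval 0.39 to 2.76, adjusted p = 0.26). Without NC 72 h replicate 6 it was 2.11 ± 0.43 and passed (adjusted p = 0.0426).

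Fstl1 encodes follistatin-like 1, a secreted glycoprotein known to antagonise BMP4. At 24 h it measured 105 to 241 scaled RPKM in KD (median 217) and 254 to 283 in NC (median 278). The groups did not overlap. Fstl1 fell by 0.51 ± 0.17 on the log2 scale, to 0.701 of the control (95% interval -0.87 to -0.16, adjusted p = 0.039). The lowest KD value was that of the shallowest library, replicate 6, without which the change was -0.34 ± 0.09 (adjusted p = 0.00989). The call was lost when KD 24 h replicate 1 or 5 or any 1 of the 6 NC 24 h replicates was left out, with changes of -0.54 to -0.49 and adjusted p-values of 0.0539 to 0.0766. Within the smaller cluster alone the change was -0.24 ± 0.08 (adjusted p = 0.146).

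At 72 h Fstl1 measured 248 to 326 scaled RPKM in KD (median 292). The NC samples measured 356 in replicate 1, 448 in the mean of replicates 2 and 3, 372 in replicate 4, 362 in replicate 5 and 375 in replicate 6. All KD samples were again below all NC samples. Fstl1 fell by 0.40 ± 0.10, to 0.758 of the control (95% interval -0.61 to -0.19, adjusted p = 0.0094). This call depends on the scaling. On the deposited RPKM, where the median of all entries was 0.25 higher in KD and 80.9% of called entries were higher instead of 46.3%, the Fstl1 change was -0.15 ± 0.09 (adjusted p = 0.206). The rise of Inhba on that scale was 1.46 and that of Gdf10 3.06, both called. Of the 11 Fstl1 entries 6 were tested, of which 3 were called lower at 24 h and 5 at 72 h.

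Fstl1 was also the single member called in NC over time, where it rose by 0.49 ± 0.07, or 1.4-fold (adjusted p = 0.00053). Over all genes tested 9.23% were called in this comparison, 5.03% higher and 4.20% lower, and groups did not overlap for 7.80%. NC averaged 272 ± 12.5 (SD, n = 6) at 24 h and 383 ± 37.2 (SD, n = 5) at 72 h, with no overlap. By group means the order was NC 72 h, KD 72 h, NC 24 h and KD 24 h. The ranges of KD 72 h, 248 to 326, and NC 24 h, 254 to 283, overlap. The interaction was 0.11 ± 0.20 (95% interval -0.31 to 0.53, adjusted p = 0.87).

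**Figure D2:**
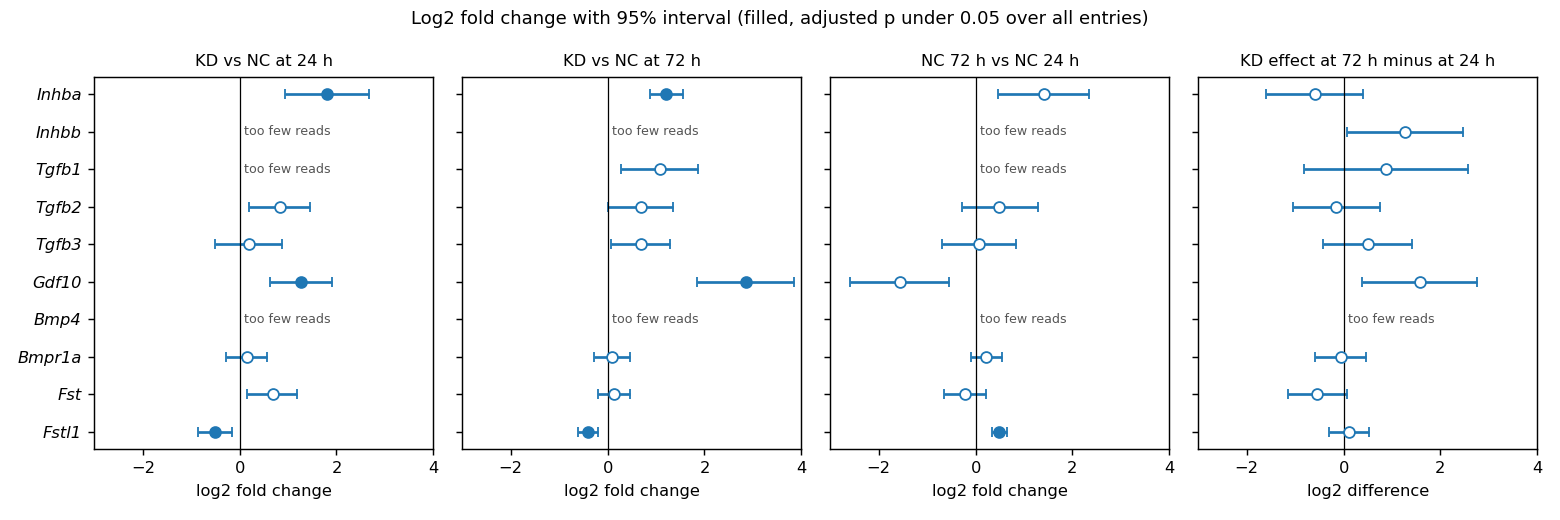
Log2 fold change (x axis) of each member with its 95% interval in the 3 comparisons, and the difference between the knockdown effects at 72 h and 24 h in the last panel. Filled points passed an adjusted p of 0.05 over all entries. Inhba and Gdf10 lie to the right and Fstl1 to the left of 0 at both times, and no member is filled in the last panel.

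None of the 3 TGF-beta genes was called. Tgfb1, which encodes the most widely expressed isoform, was too low to be tested at 24 h, with 0 to 13 reads per library. It measured 0 to 1.48 scaled RPKM in KD 24 h (median 0.894) and 0.12 to 1.18 in NC 24 h (median 0.486), which overlap (exact permutation p = 0.49). At 72 h KD ran from 0.983 to 3.22 (median 1.76). The NC samples measured 0.706 in replicate 1, 0.566 in the mean of replicates 2 and 3, 1.02 in replicate 4, 1.60 in replicate 5 and 0.347 in replicate 6. The difference was 1.08 ± 0.37 on the log2 scale (95% interval 0.28 to 1.87) and missed the threshold (adjusted p = 0.052). In the smaller cluster alone it was 0.20 ± 0.50 (adjusted p = 0.853). It passed in the larger cluster alone, at 1.63 ± 0.41 (adjusted p = 0.0134), with the cluster as a covariate, at 1.10 ± 0.37 (adjusted p = 0.0399), and on the deposited scale, at 1.30 ± 0.37 (adjusted p = 0.0172). It also passed without KD 72 h replicate 1 (1.19, adjusted p = 0.0497) or 5 (1.22, adjusted p = 0.0335) and without NC 72 h replicate 2 (1.15, adjusted p = 0.0463) or 5 (1.32, adjusted p = 0.0221).

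Tgfb2 encodes a second isoform of the ligand. At 24 h it measured 0.832 to 1.26 scaled RPKM in KD (median 1.01) and 0.221 to 0.886 in NC (median 0.547). The groups overlapped only narrowly. The difference was 0.83 ± 0.29 (95% interval 0.20 to 1.45, adjusted p = 0.055). It passed with a pseudocount of 1 (0.37, adjusted p = 0.0471), on the deposited scale (0.88, adjusted p = 0.0428) and without KD 24 h replicate 6 (0.88, adjusted p = 0.0483), NC 24 h replicate 1 (0.95, adjusted p = 0.0416) or NC 24 h replicate 6 (0.96, adjusted p = 0.0404). Of the 7 Tgfb2 entries 3 were tested at 24 h and 2 were called higher, AK029306 at 0.90 (adjusted p = 0.023) and AK159690 at 1.19 (adjusted p = 0.043).

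At 72 h Tgfb2 measured 0.833 to 1.99 scaled RPKM in KD (median 1.31) and 0.342 to 1.18 in NC (median 0.782). The ranges overlap, and the difference was 0.68 ± 0.32 (95% interval 0.00 to 1.35, adjusted p = 0.14). On the deposited scale it was 0.90 ± 0.32 and passed (adjusted p = 0.0448). It was 0.94 ± 0.43 in the larger cluster alone (adjusted p = 0.136) and 0.23 ± 0.47 in the smaller (adjusted p = 0.811). All 7 Tgfb2 entries were tested at this time, and AK141552 was the single one called, higher by 1.22 (adjusted p = 0.027). Over time in NC the difference was 0.49 ± 0.37 (adjusted p = 0.47).

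Tgfb3 encodes the isoform with the highest level of the 3 here. At 24 h it measured 1.52 to 3.73 scaled RPKM in KD (median 2.75) and 1.22 to 4.16 in NC (median 2.18), with a difference of 0.19 ± 0.32 (95% interval -0.50 to 0.87, adjusted p = 0.70). At 72 h it measured 2.83 to 5.44 in KD (median 3.75). The NC samples measured 1.53 in replicate 1, 1.83 in the mean of replicates 2 and 3, 3.47 in replicate 4, 3.97 in replicate 5 and 1.72 in replicate 6. Replicates 4 and 5, those of the smaller cluster, are the 2 that reach the KD range. The difference was 0.68 ± 0.28 (95% interval 0.08 to 1.29, adjusted p = 0.099), with 1.00 ± 0.29 in the larger cluster alone (adjusted p = 0.0289) and 0.73 ± 0.23 with the cluster as a covariate (adjusted p = 0.0283). In the smaller cluster alone it was 0.26 ± 0.31 (adjusted p = 0.643). It was 0.92 on the deposited scale (adjusted p = 0.0291) and 0.87 without NC 72 h replicate 5 (adjusted p = 0.0422). In NC over time Tgfb3 differed by 0.07 ± 0.36 (adjusted p = 0.94).

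Bmp4, the ligand that commits progenitors to the adipocyte lineage, was at the floor in every group. It had 0 to 4 reads per library in KD 24 h, 1 to 3 in NC 24 h, 1 to 7 in KD 72 h and 0 to 11 in NC 72 h. The deposited means were 0.192 ± 0.167 RPKM in KD and 0.267 ± 0.144 in NC at 24 h (SD, n = 6 each, exact permutation p = 0.41). At 72 h they were 0.517 ± 0.27 (SD, n = 6) and 0.533 ± 0.564 (SD, n = 5, exact permutation p = 0.93). A difference was not detectable at this depth at either time, nor in NC over time (exact permutation p = 0.34).

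Bmpr1a encodes a type I receptor for BMPs, ALK3. It measured 3.73 to 6.93 scaled RPKM in KD 24 h (median 5.39), 4.07 to 5.46 in NC 24 h (median 4.48), 4.46 to 7.92 in KD 72 h (median 5.3) and 5.12 to 5.84 in NC 72 h (median 5.33). All 4 ranges overlap. The difference between KD and NC was 0.15 ± 0.20 at 24 h (95% interval -0.28 to 0.57, adjusted p = 0.62) and 0.09 ± 0.17 at 72 h (95% interval -0.28 to 0.46, adjusted p = 0.76). In NC over time it was 0.22 ± 0.15 (adjusted p = 0.42). None of its 6 tested entries was called in any of the 3 comparisons. Counting by strand is not stated, and exons of an annotated gene on the opposite strand overlap those of Bmpr1a (Gm17110), Bmp4 (Gm15217), Fst (Gm47040), Tgfb2 (Gm29491) and Tgfb3 (Gm37804 and Gm48008), whose reads cannot be told apart from theirs.

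Fst encodes follistatin. At 24 h it measured 7.41 to 17.4 scaled RPKM in KD (median 10.6) and 3.86 to 9.24 in NC (median 7.13). The 2 highest values, 17.4 and 14.1, were in KD replicates 6 and 1, and the groups overlap. The difference was 0.68 ± 0.24 (95% interval 0.16 to 1.19) and missed the threshold (adjusted p = 0.056). It passed without KD 24 h replicate 4 (0.77, adjusted p = 0.0344) or 5 (0.78, adjusted p = 0.0419) and without NC 24 h replicate 6 (0.77, adjusted p = 0.0482), under a stricter filter on low values (0.68, adjusted p = 0.0489) and within the larger cluster (0.91, adjusted p = 0.0496). Within the smaller cluster it was 0.20 ± 0.25 (adjusted p = 0.701). At 72 h KD measured 5.18 to 6.88 (median 6.59) and NC 4.50 to 7.07 (median 5.7), with a difference of 0.14 ± 0.16 (95% interval -0.20 to 0.47, adjusted p = 0.57). In NC over time Fst differed by -0.22 ± 0.21 (adjusted p = 0.59), and its interaction was -0.54 ± 0.29 (adjusted p = 0.49).

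Set beside Fst in the same sample, Inhba had the higher scaled RPKM in all 6 KD 24 h samples, at 1.16 to 2.18 times Fst. This was so in 2 of 6 NC 24 h samples, where the ratio ran from 0.437 to 2.03 with a median of 0.59. Those 2 were replicates 5 and 6, the samples of the smaller cluster, with Inhba at 14.3 and 13.4 and Fst at 7.06 and 9.24. The KD 24 h samples of that cluster had Inhba at 19.1 and 15.2 and Fst at 11.0 and 7.82. Within the smaller cluster Inhba thus exceeded Fst in KD and NC alike at 24 h. At 72 h the ratio was 3.64 to 5.85 in KD and 2.01 to 2.86 in NC, with no overlap. Inhba alone did not overlap at 72 h and Fst was not called, so this ratio is no separate result. Counted in reads, without division by length, Inhba exceeded Fst in 4 of 6 KD 24 h samples, 1 of 6 NC 24 h samples and in every 72 h sample.

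In the comparison of the 2 knockdown effects 9 members could be tested and none was called (limma), at a background of 0.244% of all genes. Of the 9, 2 had an unadjusted p under 0.05, Gdf10 with 0.011 and Inhbb with 0.039. The Inhba difference was -0.60 ± 0.48 (95% interval -1.60 to 0.40, adjusted p = 0.66), and within the smaller cluster alone it was 1.09 ± 0.25 (adjusted p = 0.0406), the opposite sign. Within the larger cluster alone it was -1.47 ± 0.36 (adjusted p = 0.0531).

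The wider pathway was described with lists of further ligands, receptors, binders, Smads and target genes. Their counts stand beside the shares of all genes called, 22.8% at 24 h, 23.3% at 72 h and 9.23% in NC over time, and nothing is read from a count as particular to a list. Of the pathway genes named as called, 2 of 14 kept the call in the smaller cluster alone at 24 h, 6 of 14 at 72 h and 2 of 12 in NC over time. In the larger cluster alone 11 of 14, 12 of 14 and 12 of 12 kept it. The smaller cluster has 2 libraries per group and gave fewer calls over all entries. These were 1756 of 52005 entries at 24 h, against 13120 in the larger cluster. At 72 h they were 6025 against 13375 of 54138, and in NC over time 1868 against 5363 of 52693. A call lost in the smaller cluster thus does not show that the change is absent there. Of 22 other ligands 2 had enough reads to be tested at 24 h, and 13 of the 22 stayed under 3 reads in every library of KD 24 h. Gdf15, a stress-induced ligand that acts on a receptor in the hindbrain, was called at both times. It averaged 27.7 scaled RPKM in KD and 7.01 in NC at 24 h, a rise of 1.93 ± 0.22 (adjusted p = 0.00013), and rose by 0.60 at 72 h (adjusted p = 0.013). In the smaller cluster alone it was at 1.05 ± 0.24 at 24 h (adjusted p = 0.0503) and at 0.59 at 72 h (adjusted p = 0.187), neither called. Bmp3, the closest relative of Gdf10, was not called at either time, at -0.21 (adjusted p = 0.63) and -0.62 (adjusted p = 0.094). In NC it rose over time by 1.43 (adjusted p = 0.0011), from 2.41 to 6.47.

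Of 12 listed receptors 9 were tested at each time, and 2 were called at both, Tgfbr3 and Acvr1c, both lower, a share near that of all genes. Both were called within each cluster at both times. Tgfbr3, the betaglycan co-receptor, fell by 1.74 at 24 h (76.8 to 26.3 scaled RPKM in NC and KD, adjusted p = 0.0025) and by 0.86 at 72 h (83.9 to 46.5, adjusted p = 0.00024). Acvr1c encodes ALK7, a type I receptor of mature fat cells. It fell by 1.24 at 24 h (26.2 to 11.7, adjusted p = 0.0016) and by 1.92 at 72 h (39.4 to 10.9, adjusted p = 6.2e-05), and in NC it rose over time by 0.59 (adjusted p = 0.0023). The other receptors tested, among them Tgfbr1, Tgfbr2 and Bmpr2, were not called. The median of the list was -0.37 at 24 h and 0.04 at 72 h.

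Of 17 extracellular binders and latency proteins, 11 were tested at 24 h, with 1 higher and 1 lower, beside the 22.8% of all genes. Nbl1, a secreted BMP antagonist, rose by 1.35 (adjusted p = 0.0017) and Bmper, which binds BMPs, fell by 1.00 (adjusted p = 0.0048). At 72 h 12 were tested, with Bambi, a pseudoreceptor, higher by 0.85 (adjusted p = 0.014) and Chrdl1 (-0.69, adjusted p = 0.041) and Bmper (-0.49, adjusted p = 0.041) lower. On the deposited scale Chrdl1 was at -0.45 (adjusted p = 0.144) and Bmper at -0.24 (adjusted p = 0.325), neither called. Bambi was at 0.21 in the smaller cluster alone (adjusted p = 0.777) and was not called with no filter on low values (adjusted p = 0.0526). In NC 5 of 11 rose over time, Fstl3 by 1.34, Ltbp2 by 1.34, Lrrc32 by 1.23, Nbl1 by 1.04 and Chrdl1 by 0.82, against 9.23% of all genes, and the list's median was 0.46 against 0.02 over all genes. None of the 5 was called in the smaller cluster alone, where they were at 0.51 to 0.62.

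Of 14 Smads and their regulators 13 were tested at each time. At 24 h the inhibitory Smad7 rose by 1.29 (1.56 to 4.29 scaled RPKM, adjusted p = 0.0069) and the repressor Tgif1 by 0.75 (adjusted p = 0.023), while the ubiquitin ligase Smurf1 fell by 0.84 (adjusted p = 0.0098) and Zeb2 by 0.48 (adjusted p = 0.035). At 72 h the inhibitory Smad6 fell by 0.97 (adjusted p = 0.014) and Zeb2 by 0.77 (adjusted p = 0.011). None of Smad1 to Smad5 was called at either time, and the median of the list was -0.19 and -0.02. On the deposited scale Smad6 was at -0.73 and not called at 72 h (adjusted p = 0.0505), nor was Zeb2 at 24 h (-0.42, adjusted p = 0.0819).

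Among 13 target genes of TGF-beta 4 of 12 tested rose at 24 h: Smad7, Ctgf by 1.26 (adjusted p = 0.042), Fn1 by 0.65 (adjusted p = 0.025) and Cyr61 by 0.63 (adjusted p = 0.025). In the smaller cluster alone Ctgf was at -0.31 (adjusted p = 0.488), Fn1 at 0.07 (adjusted p = 0.808) and Cyr61 at 0.01 (adjusted p = 0.98), none called, and with no filter on low values Fn1 (adjusted p = 0.0516) and Cyr61 (adjusted p = 0.0508) were not called. Tnc fell by 0.39 (adjusted p = 0.043), a call kept in 8 of 23 alternatives and in neither cluster alone (adjusted p = 0.184 and 0.158). At 72 h 2 of 13 rose, Pmepa1 by 0.71 (adjusted p = 0.00041) and Fn1 by 0.42 (adjusted p = 0.0099), and 2 fell, Tagln by 0.76 (adjusted p = 0.031) and Col3a1 by 0.68 (adjusted p = 0.024). The 2 falls were not called on the deposited scale (-0.51 and -0.43), and Col3a1 was at -0.06 in the smaller cluster alone (adjusted p = 0.805). The median of the list was 0.01 and -0.02. In NC over time 5 of 13 rose, led by Tgfbi (2.41, adjusted p = 0.0015), with Pmepa1, Skil, Col1a1 and Fn1 at 0.65 to 0.69. The median of the list was 0.52 in that comparison, against 0.02 over all genes. In the smaller cluster alone Tgfbi was at 2.52, Pmepa1 at 0.54, Fn1 at 0.47 and Col1a1 at 0.32. None of them was called there (adjusted p = 0.0714 to 0.147).

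Among 11 target genes of BMPs 2 of 8 tested rose at 24 h, Smad7 and Msx1 (1.48, adjusted p = 0.026). Smad7 is the same gene as in the lists of Smads and of TGF-beta target genes. In the smaller cluster alone neither was called, with Smad7 at 0.88 (adjusted p = 0.208) and Msx1 at 0.64 (adjusted p = 0.359). With no filter on low values Msx1 was not called (adjusted p = 0.0716). The inhibitors of differentiation Id1, Id2 and Id3 were not called at 24 h. At 72 h 3 of 7 fell, Smad6, Id2 by 0.91 (adjusted p = 0.0069) and Id3 by 0.41 (adjusted p = 0.014), and Bambi rose. On the deposited scale Id3 was at -0.16 (adjusted p = 0.385). The median of the list was 0.15 and -0.19, and in NC over time none of 7 was called (limma), with an adjusted p of 0.059 for Id1.

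**Figure D3:**
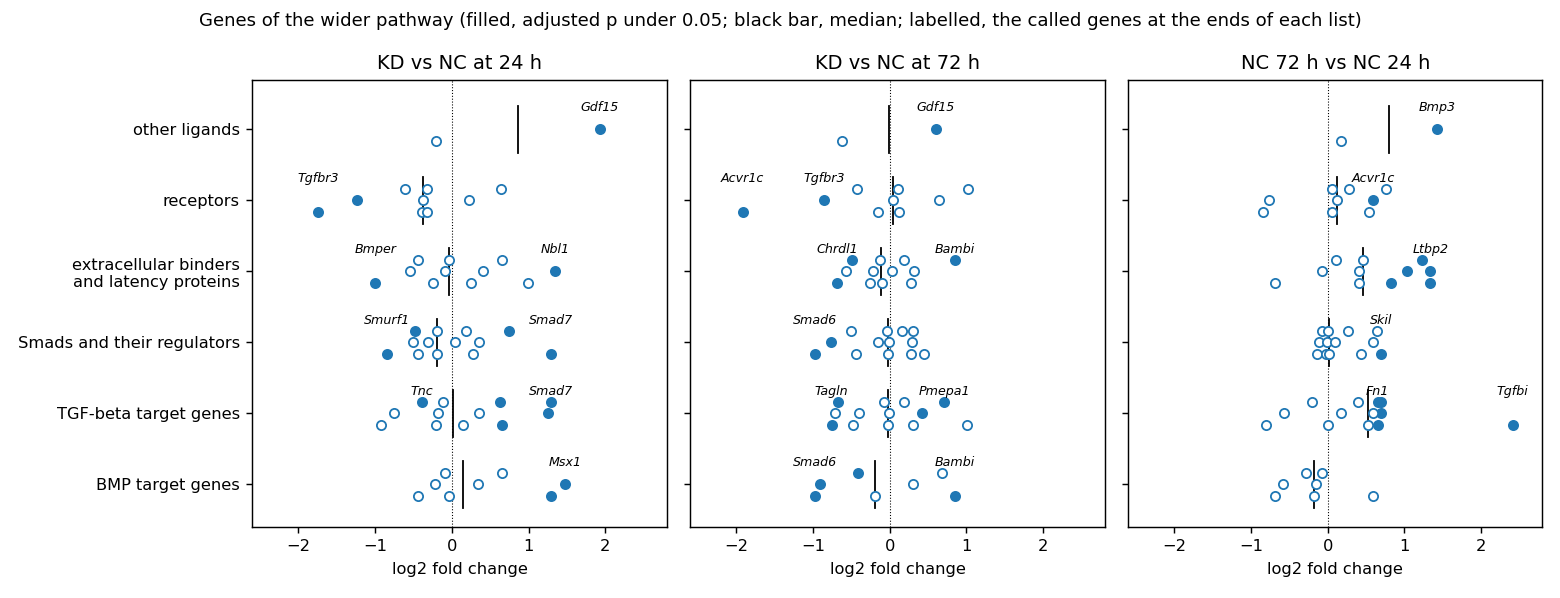
Log2 fold change (x axis) of each gene tested in 6 lists of the wider pathway, in KD against NC at 24 h and 72 h and in NC over time. Filled points were called, the black bar is the median of the list, and the called genes at the ends of a list are named. At 24 h filled points lie on both sides of 0 among binders, Smads and TGF-beta target genes. At 72 h they do so among binders, TGF-beta target genes and BMP target genes. In NC over time every filled point lies on the right. The 2 receptors filled in KD against NC lie on the left at both times.

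Markers of the cells moved with the knockdown. The 5 brite markers Ucp1, Cidea, Cox7a1, Elovl3 and Ppargc1a were all called lower at 72 h and 4 of them at 24 h, and their summed level was 379 to 728 scaled RPKM in KD 72 h and 1260 to 2120 in NC 72 h. The 6 adipocyte markers summed to 26300 to 35800 in KD 72 h and 36900 to 48100 in NC 72 h, with 3 called lower. Of 8 stromal or fibroblast markers 5 were tested at 72 h and Cd34 and Pdgfrb were called higher, whereas none of 6 was called at 24 h (limma). Krt19 was the single mesothelial or epithelial marker with enough reads, and rose from 22.1 to 49.8 at 24 h and from 23.0 to 136 at 72 h. The leukocyte gene Lyz2 averaged 1.19 in KD 72 h and 13.7 in NC 72 h, and was called lower. Csf1r, a receptor of macrophages, was called higher, from 1.40 to 3.42 at 24 h (1.22 ± 0.27, adjusted p = 0.0062) and from 2.48 to 6.22 at 72 h (1.23 ± 0.25, adjusted p = 0.003). Of 7 leukocyte genes 3 were tested at each time, of which Cd14 was called at neither and Lyz2 not at 24 h. Ptprc stayed under 3 reads in every library of KD 24 h, KD 72 h and NC 72 h, but not in every library of NC 24 h. Smooth muscle and pericyte markers summed to at most 9.75 and endothelial markers to at most 1.59, with Kdr and Tie1 under 3 reads in every library. The part of these shifts in the changes of Inhba, Gdf10 and Fstl1 was not tested. In a culture of mixed cells, fewer cells of a type and less RNA per cell cannot be told apart.

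For the 3 members called at both times, the genes with the closest profile over the 23 samples were found by the root mean square difference of centred log2 values among 12680 genes. For Inhba they were 9530076L18 (0.49), Fam101b (0.58) and Fblim1 (0.60), beside a root mean square of 1.12 of Inhba itself. For Gdf10 they were 2010204K13Rik (0.61), Apol9b (0.67) and Cdt1 (0.68), beside 1.30, and for Fstl1 Vmp1, Bad and Mkln1 (0.18 each), beside 0.42. These are likenesses of level across samples that share groups and clusters, and say nothing of shared function or control.

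**Figure D4:**
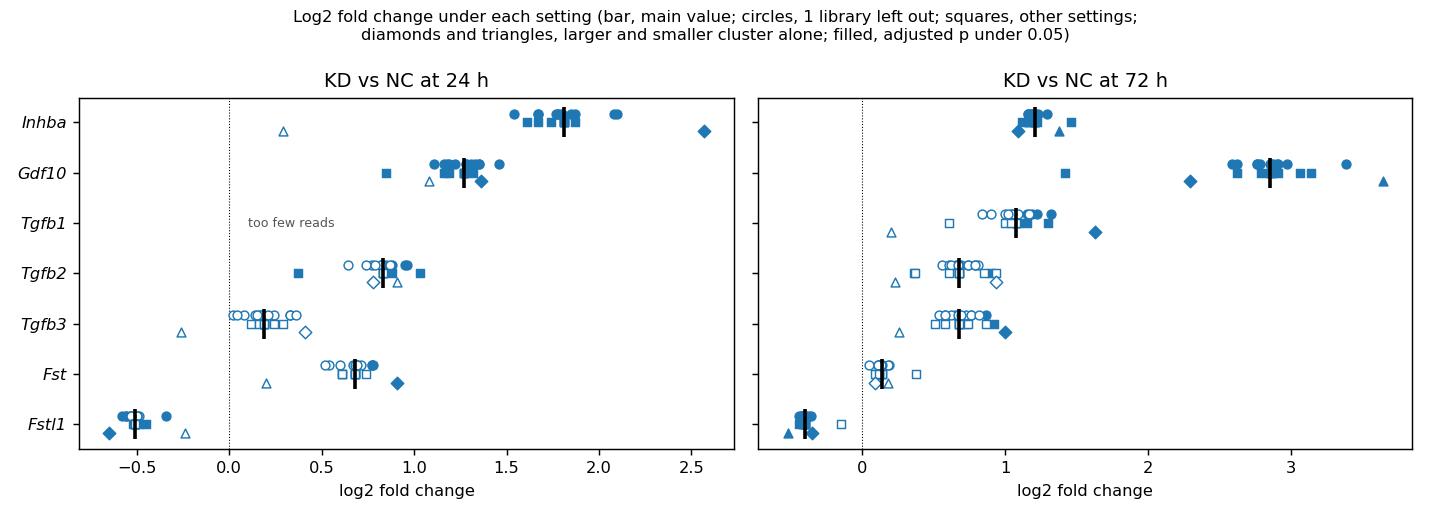
Log2 fold change (x axis) of 7 members in KD against NC at 24 h and 72 h under every setting tried. The bar is the value reported, circles leave out 1 library, squares are other settings, and diamonds and triangles are the larger and smaller cluster alone, filled where the adjusted p was under 0.05. Inhba stays to the right of 0 everywhere, and its lowest value, 0.29, is that of the smaller cluster at 24 h.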

How the data were processed

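The data are 24 libraries of bulk RNA barcoding and sequencing (BRB-seq, 3′ ends primed with oligo-dT) of KD and NC brite adipocytes at 24 h and 72 h. By the study's methods the tags were aligned to RefSeq and analysed with the Genomatix Software Suite. The RPKM values were deposited in 1 table of 168326 entries, which holds GenBank and Ensembl entries beside those of RefSeq. The version and genome build for these libraries are not given in the sources used here. The authors tested with DESeq2, and their results were not used.

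Mapped reads per library were recovered from the steps of the RPKM values (1391830 to 5423833), where 93.0 to 93.7% of values came out as whole reads in 23 libraries and 74.2% in NC 72 h replicate 6. RPKM were scaled between samples by a trimmed mean of log ratios (30% of ratios and 5% of levels trimmed). Entries with the equivalent of 10 reads in as many samples as the smaller group, and 15 reads in all, were tested with limma 3.58.1 in R 4.3.3 (empirical Bayes with a trend) on log2(scaled RPKM + 0.1), with Benjamini-Hochberg adjustment over all entries and a threshold of 0.05. Fold changes on this scale understate the change of low genes. Members under the filter were compared on their deposited RPKM by an exact permutation test, two-sided (SciPy 1.17.1, Python 3.11.15). The fit was tested on simulated data. NC 72 h replicates 2 and 3, which differed by 0.37 of the counting noise (1.84 for the next of 276 pairs), were averaged as 1 sample. The precision of low genes is set by their reads, and a floor of 3 reads was used.

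Each gene is its RefSeq entry of highest mean RPKM. The named genes are the members, up to 4 called genes of each pathway list and comparison with the largest change, and the 3 genes of closest profile to each member called at both times. Further called genes, genes named as not called and the marker genes were added after their values were seen. Members and lists were chosen with earlier results of these data known, and 1 gene of the lists is not reported here. Alternatives were the pseudocount, the filter, the scaling, a test of recovered reads (voom), the next entry of a gene, a replicate block, the clusters and leaving out each library.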

Additional observations from a re-analysis of the deposited data

Results flagged for a closer look

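In 4 of the 40 groups of members tested for an outlying sample, 1 sample lay far from the rest of its group, and chance alone flags about 1 in 20 groups. In NC 72 h the mean of replicates 2 and 3 was highest for Inhba, at 20.3 scaled RPKM with a gap to the next sample of 0.87 of the range. The same sample was highest for Fstl1, at 448 with a gap of 0.79 of the range. Gdf10 was highest in NC 72 h replicate 6, at 1.59 with a gap of 0.86 of the range. Fst was lowest in KD 72 h replicate 5, at 5.18 with a gap of 0.70 of the range.

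The knockdown effect on Gdf15 differed between the times: its rise was smaller at 72 h than at 24 h by an interaction of -1.33 on the log2 scale (limma, adjusted p = 0.048). Of 36 alternatives 12 kept this call. The adjusted p was 0.0678 with no filter on low values, 0.0641 on the deposited scale and 0.12 by voom on recovered reads. In the larger cluster alone the interaction was -1.74 (adjusted p = 0.000892), and in the smaller -0.47 (adjusted p = 0.594).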

How the results depend on the processing

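Over the alternatives tried, 755 of 835 values of the members kept their direction and their side of the threshold, 41 passed newly, 13 were lost and 26 turned. Of 980 values of pathway genes 150 were lost, 1 turned and the others kept both. The cause of these shifts was not tested. All main calls were kept in 12 of 23 alternatives at 24 h, 23 of 24 at 72 h and 24 of 24 in NC over time. With no filter on low values Fstl1 at 24 h was not called (adjusted p = 0.0828).

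At 24 h 3 members were called, 0 in the smaller cluster alone and 2 to 4 when leaving out 1 library. At 72 h 3 were called. It was 5 on the deposited scale, with the agreeing libraries kept as 2 samples, with the cluster as a covariate and in the larger cluster alone, and 3 to 5 when leaving out 1 library (5 without NC 72 h replicate 5). In NC over time 1 was called. It was 2 under a stricter filter, with the agreeing libraries kept, in the larger cluster alone and in the smaller cluster alone, 3 with voom on recovered reads and with the cluster as a covariate, and 1 to 2 when leaving out 1 library. For the interaction 0 were called, 1 in the smaller cluster alone, and 0 to 1 when leaving out 1 library.

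In the smaller cluster alone the sign turned for Tgfb3 at 24 h (-0.26), Bmpr1a at 72 h (-0.21), Inhba (-0.17) and Tgfb3 (-0.07) in NC over time, the interactions of Tgfb1 (-1.58), Inhba (1.09) and Fstl1 (-0.28), and Ctgf (-0.31) at 24 h. In the larger cluster alone it turned for Fst in NC over time (0.03) and the interactions of Tgfb2 (0.16) and Bmpr1a (0.16). On the deposited scale the interaction was 0.03 for Tgfb2 and 0.13 for Bmpr1a, and with the agreeing libraries kept it was 0.02 for Tgfb2. Tgfb3 in NC over time was -0.11 by its next entry and -0.01 with the cluster as a covariate. Leaving out 1 library gave -0.00 to 0.16 for Bmpr1a at 72 h, -0.12 to 0.25 for Tgfb3 in NC over time, and interactions of -0.28 to 0.04 for Tgfb2, -0.15 to 0.03 for Bmpr1a and -0.06 to 0.18 for Fstl1.

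On the deposited scale 16255 entries were called at 72 h, 80.9% of them higher, against 12135 with 46.3% higher, and for the interaction 773 with 96.1% higher against 111 with 60.4%. Deviations of same-numbered libraries correlated at -0.06 on average at 24 h, 0.04 at 72 h and 0.04 between the NC times. Some same-numbered libraries lie in different clusters, so these values cannot show whether a shared number means a shared culture. With the replicate block Fst at 24 h passed newly (0.68, adjusted p = 0.034), the calls of Fn1 (adjusted p = 0.06) and Tnc (adjusted p = 0.108) at 24 h, Bambi at 72 h (adjusted p = 0.0645) and the interaction of Gdf15 (adjusted p = 0.103) were among those lost, and 4, 3, 1 and 0 members were called at 24 h, at 72 h, in NC over time and for the interaction, and 8720, 8202, 2898 and 59 entries against 11769, 12135, 4816 and 111. At a few reads per library, Bmp4, Inhbb and Tgfb1 at 24 h are limited by depth.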
